A study of Mus musculus with 5 samples.

Results

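The subtelomeric windows described here are the last 3 Mb of each of the 19 mouse autosomes, measured back from the largest position that any of 5 deposited CpG tables lists for that chromosome. A CpG was a member when its second count was at least 10 in all 5 libraries. That count is read here as following reads of either methylation state, a reading inferred from the values. This gave 57011 member CpGs out of 1780536 autosomal CpGs that met the same count minimum, or 3.20% of the CpGs in 2.36% of the listed span. Members were chosen by position and count alone, which under that reading does not depend on their methylation. Neighbouring CpGs were also joined into 1 kb tiles with at least 3 such CpGs, which gave 4551 member tiles of 152678 autosomal tiles.

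The data are reduced representation bisulfite sequencing (RRBS), in which DNA is cut with MspI so that CpG-rich fragments are read, and bisulfite then changes unmethylated cytosines only. WT was 1 library labelled wildtype, with no doxycycline named for it. K36M was 2 libraries and K9M was 2 libraries from mice expressing histone H3.3 with methionine in place of lysine 36 or lysine 9, which the labels call dominant negative, with 2 mg/ml doxycycline in the drinking water. Strain, age, promoter of the transgenes and the time on doxycycline are not given in the sources used here, and doxycycline and the mutants cannot be told apart in any comparison with WT. The source name calls the cells HSCs, or hematopoietic stem cells, while the growth protocol has them sorted from peripheral blood. No expression was measured, so the cell type could not be checked against markers, and a change in the mix of cells and a change within cells cannot be told apart. Nothing states that replicates came from separate animals, so the spread between these libraries may be technical. The p-values of single tiles use a spread held at or above that of counting error, and 22.3% of tiles lay above it. At the other tiles these p-values measure counting error only.

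Subtelomeres are the stretches of unique and repeated DNA next to the telomere repeats. Mouse autosomes have their centromere close to one tip, so the high-numbered end of each chromosome is the distal one, next to the telomere of the long arm. Methylated lysine 36 of histone H3 is bound by the de novo DNA methyltransferases DNMT3A and DNMT3B, and methylated lysine 9 marks constitutive heterochromatin, mouse telomeres and subtelomeres included. The K36M and K9M substitutions are known to inhibit the enzymes that methylate these 2 residues. The last listed CpG is the edge of what these tables cover in mm9, not the telomere itself.

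Genes were tied to the windows through their promoters. Promoters were placed by comparing the spacing of CpGs in RefSeq sequences of 300 bases, 250 before and 50 after each gene's start, with the spacing of the listed CpGs. Only that spacing was matched, not the bases between. In this way 386 promoter sequences of 335 gene symbols were tied to the windows, and 320 symbols had at least 3 measured CpGs. Those printed here are promoters whose level differed between libraries, described further on, and 1 unmethylated promoter from the imprinted cluster of chromosome 7 for contrast. They show how dense the measured CpGs are. All but the upstream Tmem267 promoter were picked after their values were seen. Sequences are from RefSeq, GRCm38.p6, read 5′ to 3′ along the gene's strand, while the positions are those of the matched CpGs in mm9. Capitals mark the CpGs that were measured in all 5 libraries.
Tmem267, upstream start, chr13:120276643-120276942, plus strand: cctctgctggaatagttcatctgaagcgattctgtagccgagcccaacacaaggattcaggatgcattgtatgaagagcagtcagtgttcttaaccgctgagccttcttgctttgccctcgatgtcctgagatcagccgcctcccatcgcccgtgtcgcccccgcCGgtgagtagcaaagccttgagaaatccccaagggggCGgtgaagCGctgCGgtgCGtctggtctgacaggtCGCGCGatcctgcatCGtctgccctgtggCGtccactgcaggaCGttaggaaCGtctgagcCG
Tmem267, downstream start, chr13:120277030-120277329, plus strand: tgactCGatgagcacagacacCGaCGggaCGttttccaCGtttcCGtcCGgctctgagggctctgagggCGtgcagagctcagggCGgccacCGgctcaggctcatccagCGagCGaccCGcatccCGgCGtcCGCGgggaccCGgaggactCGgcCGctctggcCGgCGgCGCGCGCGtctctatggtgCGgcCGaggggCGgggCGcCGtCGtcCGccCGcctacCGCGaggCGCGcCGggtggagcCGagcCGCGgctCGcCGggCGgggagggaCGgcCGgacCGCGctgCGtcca
Csf2ra, chr19:61304272-61304571, minus strand: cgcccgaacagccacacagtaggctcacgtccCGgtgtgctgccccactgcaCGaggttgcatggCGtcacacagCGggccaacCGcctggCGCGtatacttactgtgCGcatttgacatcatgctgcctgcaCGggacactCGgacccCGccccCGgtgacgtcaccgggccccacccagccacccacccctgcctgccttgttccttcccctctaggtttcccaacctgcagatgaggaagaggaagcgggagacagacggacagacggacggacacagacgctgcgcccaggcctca
Medag, chr5:150214074-150214373, plus strand: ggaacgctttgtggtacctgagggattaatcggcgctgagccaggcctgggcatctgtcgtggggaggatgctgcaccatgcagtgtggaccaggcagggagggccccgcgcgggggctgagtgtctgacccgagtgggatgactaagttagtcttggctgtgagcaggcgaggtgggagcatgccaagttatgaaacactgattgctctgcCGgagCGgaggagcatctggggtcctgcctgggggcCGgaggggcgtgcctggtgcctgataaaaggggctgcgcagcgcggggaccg
Ascl2, chr7:150155120-150155419, minus strand: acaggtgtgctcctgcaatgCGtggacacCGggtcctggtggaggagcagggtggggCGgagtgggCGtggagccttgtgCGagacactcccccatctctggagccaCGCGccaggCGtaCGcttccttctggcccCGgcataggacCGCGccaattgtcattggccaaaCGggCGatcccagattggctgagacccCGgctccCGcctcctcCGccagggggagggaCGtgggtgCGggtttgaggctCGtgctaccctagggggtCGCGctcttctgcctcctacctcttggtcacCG

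Levels are given as a relative level, in percent of a plateau. The deposited fraction did not share 1 scale. At 3063 member CpGs that K9M replicate 2 lists at nearly full methylation, its median deposited level was 100%, while the medians of the other 4 libraries ran from 53.2% to 56.7%. The methylated count was therefore divided by the second count, and the ratio by its value in the most methylated tiles of the same library. That plateau was 1.23 in WT, 1.22 and 1.26 in K36M, with K9M at 1.37 and 0.954. Where it is above 1, the second count cannot hold all the methylated reads, so what it counts exactly is not known. A relative level can pass 100%, and it hides any change that affects every CpG of a library in proportion. The deposited counts summed to between 108651379 and 168836289 per library over the autosomes. The median second count per member CpG was 44 in WT, 36 and 42 in K36M, while K9M stood at 35 and 45, within 1 count of the other autosomal CpGs in each library.

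The windows were denser in measured CpGs than the rest of the autosomes and less methylated. They held 1.00 member CpG per kb, against 0.731 elsewhere and 0.781 in the first 3 Mb that each chromosome lists, at the centromeric side. Pooled over member CpGs, the relative level was 35.6% in WT, 33.9% and 34.2% in K36M, against 35.2% and 34.9% in K9M. The same value over the other autosomal CpGs was 42.8% in WT, 41.8% and 41.6% in K36M, with K9M at 42.5% and 42.4%. The distal windows thus lay below the rest of the autosomes in all 5 libraries. The difference was -7.17 points in WT, -7.97 and -7.42 points in the 2 K36M libraries and -7.36 and -7.48 points in the 2 K9M libraries. The first 3 Mb stood much closer to the other autosomal CpGs, at 41.3% in WT, 40.3% and 40.2% in K36M, against 41.6% and 41.2% in K9M.

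Between groups, the windows moved little. K36M averaged 34.0% ± 0.217 (SD, n = 2) and K9M 35.03% ± 0.181 (SD, n = 2), a difference of -1.01 points. Both K36M libraries lay below both K9M libraries, and the exact two-sided permutation p was 0.333, the smallest that 2 libraries against 2 can give. K36M lay below the lone WT library by 1.63 points at the windows and by 1.10 points over the other autosomal CpGs, and K9M by 0.619 and 0.370 points. Without the last 12 kb of chromosome 13, where WT was read far deeper than the other libraries, the differences from WT at the windows were -1.32 points for K36M and -0.360 points for K9M. WT has no replicate, so these gaps were set beside the SD between mutant replicates and not tested. The gap between the windows and the rest of the autosomes was -7.70 ± 0.383 points (SD, n = 2) in K36M and -7.42 ± 0.0849 points (SD, n = 2) in K9M, a difference within the replicate spread (exact two-sided permutation p = 0.667). The order of K9M and WT depended on how CpGs were summed. As a mean over CpGs rather than pooled counts, K9M lay 0.432 points above WT, but its replicates fell on both sides, at 39.6% and 41.0% against 39.9% in WT.

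CpG-rich tiles were nearly unmethylated everywhere and were somewhat more common at the windows. Tiles with at least 40 CpGs had a mean level of 5.48% in WT at the windows and 5.85% elsewhere, and they made up 6.57% and 5.47% of the tiles. The gap was wider at intermediate CpG numbers. In WT, tiles with 20 to 39 CpGs averaged 22.5% at the windows against 29.0% elsewhere, and tiles with 10 to 19 CpGs averaged 56.1% against 63.1%. Tiles with 3 to 9 CpGs, 70.9% of the member tiles, averaged 78.9% against 81.6%. The windows were lower than the other tiles in each of these CpG classes in the other 4 libraries as well.

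Within the windows, the level pooled over CpGs was highest in the last 0.5 Mb. It was 44.1% in WT there, 41.0% and 42.2% in K36M, with K9M at 42.9% and 42.1%. From 2 to 2.5 Mb inward it was 31.7% in WT, 30.5% and 30.1% in K36M, while K9M stood at 31.6% and 31.4%. The outermost bin had the highest pooled level in all 5 libraries, but not as a mean over tiles, where it stood at 67.4% in WT, below the 68.0% of both bins between 2 and 3 Mb. K36M lay below WT in each of the 6 bins. The pooled difference was -2.55 points in the outermost and -1.05 points in the innermost, while tile means gave the smaller difference in the outermost bin, -1.51 points, and -2.43 points in the innermost. The outermost pooled values rest in part on the last 12 kb of chromosome 13, where WT has 268 second counts per CpG against 82.7 and 118 in K36M. Without that stretch, the outermost bin still had the highest pooled level in all 5 libraries, at 41.7% in WT, but the difference of K36M from WT there was -0.929 points. No gradient of the K36M gap along the windows was thus common to these summaries.

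The 19 ends differed from each other far more than the libraries did. The end of chromosome 15 was the least methylated, with a mean tile level of 51.8% in WT, 49.1% and 49.9% in K36M, against 51.4% and 53.5% in K9M. It stood 21.7 points below the rest of chromosome 15, as a mean of the 5 libraries. The ends of chromosomes 17 and 18 stood at the other extreme, 14.6 and 16.6 points above the rest of their chromosomes. The end of chromosome 17 had a mean tile level of 82.4% in WT, 83.7% and 85.1% in K36M, with K9M at 84.3% and 86.2%. Tiles with 20 or more CpGs made up 2.13% of the 94 tiles there and 8.89% of the 90 at chromosome 18. They made up 16.2% at chromosome 15, and 8.75% at chromosome 8, whose end stood -0.00758 points from its rest. The part of CpG number in these gaps was not tested. Across the set, 14 of the 19 ends lay below the rest of their own chromosome. The number of member CpGs ran from 745 at chromosome 17 to 7606 at chromosome 11, and the number of tiles from 88 at chromosome 3 to 564 at chromosome 4.

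At 17 of the 19 ends both K36M libraries had a lower mean tile level than WT. The chromosome 17 end was the exception with both above WT, and at the chromosome 18 end 1 K36M library lay on each side. The largest gap was at chromosome 11, with 60.4% in WT, 56.4% and 57.1% in K36M, while K9M stood at 60.1% and 62.8%. Chromosome 7 followed, with 63.7% in WT, 60.01% and 60.4% in K36M, against 63.6% and 66.8% in K9M. The K9M replicates did not place K9M on one side of WT. Replicate 2 lay above WT at 19 ends and replicate 1 lay below it at 14. Both K36M libraries lay below both K9M libraries at 13 ends and above both at 0.

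The tiles of intermediate level carried the largest group differences. Classes were set by the group outside the comparison, so that the compared libraries did not choose their own class. Among the 566 member tiles at 20% to 80% in K9M, the average came to 56.1% in WT and 50.2% and 50.7% in the K36M libraries, a gap of -5.66 points. The same class outside the windows had a gap of -5.53 points. Member tiles over 80% had a gap of -2.21 points and those under 20% a gap of -0.224 points. Against K9M, with the class set by WT, 682 intermediate tiles averaged 54.9% and 55.8% in K36M, with K9M at 61.5% and 65.3%, a gap of -7.98 points (exact two-sided permutation p = 0.333, the smallest possible), beside -7.18 points elsewhere. In the 853 intermediate tiles of the class set by K36M, WT stood at 68.2%, K9M replicate 1 at 68.0% and K9M replicate 2 at 73.0%, so the K9M replicates did not lie on one side of WT.

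Single tiles were then tested with a logistic model fitted over all 152678 autosomal tiles, with quasi-binomial dispersion moderated by limma and Benjamini-Hochberg adjustment. A call needed an adjusted p under 0.05 and at least 10 points between the group means. K36M was lower than WT at 24 member tiles, or 0.527% of them, where 0.439% of all autosomal tiles were called. K36M was higher than WT at 0 member tiles, with 0.0118% over all tiles. At an unadjusted p under 0.05, 221 member tiles were lower, or 4.86% of them beside 3.78% of all tiles, and 75 higher, or 1.65% beside 1.34%. limma on relative levels called 12 lower, and edgeR's quasi-likelihood test 60 lower and 3 higher. K36M was lower than K9M at 68 member tiles, or 1.49%, where 1.16% of all tiles were called, and higher at 6, where 0.0668% were. Against WT, K9M was higher at 3 member tiles, with 0.0458% of all tiles called, and lower at 0, with 0.0242%. At an unadjusted p under 0.05, 94 member tiles were higher in K9M than in WT, or 2.07% beside 1.58% of all tiles, and 63 lower, or 1.38% beside 1.23%. limma called 1 member tile lower in K9M than in WT and edgeR 5. Shares over all tiles are not given for limma and edgeR, so their counts do not compare the windows with other tiles.

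The shares of K36M losses at the windows were near those of all autosomal tiles. Of the 24 tiles lower than WT, 18 were also called lower than K9M, 2 comparisons that share the K36M libraries. Averaged over the 24 tiles, the level came to 41.0% in WT, 12.8% and 14.4% in K36M, while K9M stood at 40.7% and 41.3%. 17 of the 24 held 3 to 9 CpGs, where 70.9% of all member tiles did. 0 held 40 or more, where 6.57% of member tiles did, so the split was near that of the member tiles. The ends of chromosomes 4, 11 and 15, picked with their calls known, held 34.4% of the member tiles. They held 13 of the 24 losses against WT and 41 of the 68 against K9M. Per 100 tiles, their losses against WT numbered 0.709, 0.938 and 0.853. The ends of chromosomes 8 and 7 had more, at 1.25 and 1.07. With 1 library left out, between 0 and 5 tiles stayed called lower than WT and between 4 and 23 lower than K9M. The number against WT was 0 without K36M replicate 1, 0 without K36M replicate 2, 5 without K9M replicate 1 and 4 without K9M replicate 2. Against K9M these were 8, 4, 23 and 20. Those fits have 1 residual degree of freedom in place of 2.

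The tile with the largest K36M difference lay at chr7:149728001-149729000, 2.79 Mb from the end of chromosome 7, with 3 CpGs. Its relative level was 67.9% in WT, 15.95% and 20.6% in K36M, against 95.2% and 95.8% in K9M. The groups did not overlap, and WT lay between the mutants. All 3 CpGs showed that order. At the middle one, position 149728829, the level was 77.3% in WT, 20.6% and 27.6% in K36M, with K9M at 106% and 103%. K36M lay 49.6 points below WT (adjusted p = 0.0321, limma-moderated quasi-binomial test) and 77.2 points below K9M (adjusted p = 0.00125). The call against WT was lost with a coverage minimum of 5 (adjusted p = 0.0635), with a plateau from the top 40% of tiles (0.0513) and with limma on relative levels (0.138), and held with edgeR (0.000287), while the call against K9M held in all 4. The tile rests on 33.0 second counts per CpG in WT, and its WT level has a 95% exact binomial interval of 50.1% to 91.9%, which covers counting error only. The nearest promoter that could be tied to an mm9 position, 9.01 kb away, was that of Mrpl23, which encodes a protein of the mitochondrial ribosome. Nearer genes may exist, since most genes were not tied to a position.

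A second tile of the chromosome 7 end, chr7:149647001-149648000, stood at 49.3% in WT, 4.41% and 7.27% in K36M, while K9M stood at 43.0% and 54.7%. WT and K9M overlapped and both K36M libraries were near the bottom of the scale (adjusted p = 0.00624 against WT and 0.00106 against K9M). Of the 3 CpGs in that tile, the one at position 149647693 was at or below 3.43% in all 5 libraries. The loss lay in those at positions 149647795 and 149647802, at 75.5% and 52.3% in WT. On chromosome 15, chr15:100511001-100512000 stood at 66.5% in WT, 11.9% and 14.5% in K36M, against 66.8% and 79.9% in K9M (adjusted p = 0.0317 against WT). This is the largest loss against WT, at 53.3 points, in a tile of 3 CpGs, and its call was lost in the same 3 alternatives (adjusted p up to 0.104). Much closer to the tip, 133 kb from the end, chr15:103359001-103360000 stood at 42.2% in WT, 4.52% and 2.06% in K36M, with K9M at 39.7% and 50.4%. Its methylated counts were 49 in WT against 5 and 2 in K36M (adjusted p = 0.0126 against WT).

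Chromosome 4 held a cluster of losses between 1.63 and 1.71 Mb from its end. The tile chr4:153928001-153929000, with 8 CpGs, stood at 43.8% in WT, 7.45% and 12.0% in K36M, while K9M stood at 59.4% and 49.5% (adjusted p = 0.004 against WT and 0.000438 against K9M). At chr4:153960001-153961000 the levels were 79.1% in WT, 31.2% and 41.8% in K36M, against 89.2% and 80.1% in K9M. Its call against WT was kept in 4 of 6 alternatives of coverage, plateau, tool or CpG number (adjusted p up to 0.324). Both K36M libraries lay at about the same intermediate level in 2 more tiles of the cluster. These were chr4:153915001-153916000, at 31.5% and 28.2% against 54.6% in WT, and chr4:154001001-154002000, at 34.8% and 40.6% against 80.5% in WT. The last of these lay 8.43 kb from the matched promoter of 5930403L14Rik. Both were called against K9M only, with an adjusted p of 0.000817 and 0.0102, and whether they differ from the called pair in their gap to WT was not tested.

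The other named losses against WT were spread over 4 chromosome ends. At chr11:120490001-120491000, 3.42 kb from the promoter of Sirt7, an NAD-dependent deacylase of the nucleolus, the level was 51.6% in WT, 14.0% and 16.4% in K36M, with K9M at 33.1% and 43.7% (adjusted p = 0.00926). Of the 7 CpGs in that tile, the loss lay in those at positions 120490005 and 120490042, at 78.1% and 87.9% in WT. The other CpGs of the tile were at or below 4.50% in all 5 libraries. At chr2:179504001-179505000 the level was 78.1% in WT, 36.1% and 45.9% in K36M, while K9M stood at 76.9% and 75.9% (adjusted p = 0.0379). That call was kept in 3 of 6 alternatives of coverage, plateau, tool or CpG number (adjusted p up to 0.351). No named loss against WT was kept in all of its alternatives of this kind. K9M was also below WT, without a call, in the remaining pair. At chr8:129391001-129392000 the level was 44.6% in WT, 10.9% and 11.6% in K36M, against 22.6% and 14.9% in K9M. At chr15:103138001-103139000 it was 47.7% in WT, 15.7% and 19.3% in K36M, with K9M at 28.3% and 34.5%. The adjusted p for K36M against WT was 0.0395 and 0.0245. Against K9M, the named losses included chr14:122583001-122584000, 2.04 kb from the promoter of Clybl, which encodes a mitochondrial citrate lyase-like enzyme. It stood at 66.8% in WT, 36.5% and 47.3% in K36M, while K9M stood at 85.2% and 82.8% (adjusted p = 0.00729). In the tile chr7:150558001-150559000, named here after its values were seen, both K36M libraries had 0 methylated counts, which allows relative levels up to 2.06% and 2.54%. WT stood at 13.8% and K9M at 15.6% and 18.6% (adjusted p = 0.0245 against WT).

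The run of neighbouring losses with the most CpGs lay on chromosome 11, 1.79 Mb from the end. All 3 tiles from chr11:120046001 to 120049000, with 64 CpGs, were called lower in K36M than in K9M. The first tile stood at 76.5% in WT, 38.2% and 40.6% in K36M, against 90.5% and 87.2% in K9M. The middle tile stood at 27.9% in WT, 6.36% and 8.10% in K36M, with K9M at 39.2% and 43.0%. The last stood at 10.2% in WT, 1.65% and 1.32% in K36M, while K9M stood at 23.9% and 21.0%. The level thus fell along the run in every library while the order of the groups stayed the same. K36M lay below both K9M libraries at all 64 CpGs, both K36M libraries lay below WT at 58, and both K9M libraries lay above WT at 58. These counts describe a run chosen by its calls, with CpGs that can share reads, and add no separate support. The middle tile was also called lower in K36M than in WT (adjusted p = 0.000885), and the last was called higher in K9M than in WT (adjusted p = 0.0174). The median CpG stood at 20.7% in WT, at 2.57% and 2.48% in K36M and at 36.0% and 37.2% in K9M. The nearest matched promoter, that of the transcript 2810410L24Rik, began 2.12 kb from the last tile.

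More runs of called tiles lay within 60 kb on the same chromosome. Tiles from chr11:120100001 to 120103000, 0.401 kb from the promoter of Gm11772 at the nearest, averaged 40.1% in WT, 23.2% and 22.1% in K36M, against 48.8% and 48.7% in K9M. In the tile chr11:120101001-120102000, the level was 18.6% in WT, 2.79% and 3.02% in K36M, with K9M at 34.1% and 31.0% (adjusted p = 0.00126 against WT). Tiles from chr11:120087001 to 120089000, 5.01 kb from the promoter of Bahcc1, a chromatin protein with a BAH domain, averaged 27.9% in WT, 10.2% and 6.97% in K36M, while K9M stood at 27.6% and 31.6%. In these 3 runs both K36M libraries lay below all the other libraries. Elsewhere, runs of 2 called tiles lower in K36M than in K9M lay at the ends of chromosomes 2, 4, 5 and 15. The run of chromosome 15, chr15:101309001-101311000, had another pattern. It averaged 15.3% in WT, 13.1% and 14.8% in K36M, against 36.5% and 57.6% in K9M, so that WT stood with K36M there.

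K9M was above WT most clearly in the last CpGs of chromosome 4. The tile chr4:155628001-155629000, whose 16 CpGs all lie within 1.22 kb of the last listed CpG of the chromosome, stood at 4.18% in WT, 5.21% and 3.01% in K36M, with K9M at 28.9% and 33.3%. The next and last tile, chr4:155629001-155630000, stood at 4.35% in WT, 0.928% and 0.595% in K36M, while K9M stood at 28.0% and 32.9%. Both K9M libraries were far above the other 3 libraries, which were all nearly unmethylated. The methylated counts over the 22 CpGs were 33 in WT, 26 and 15 in K36M, against 266 and 285 in K9M, with 28.7, 28.6, 27.7, 30.7 and 40.9 second counts per CpG. The difference from WT was 26.9 points (adjusted p = 0.00289) in the first tile and 26.1 points (adjusted p = 0.0345) in the second, and the difference from K36M had an adjusted p of 0.000149 and 0.000181. The call against WT was kept in 6 of 6 alternatives of coverage, plateau, tool or CpG number in the first tile (adjusted p up to 0.0454). In the second tile it was kept in 4 of 6 (adjusted p up to 0.0821). Both K9M libraries were above WT at 17 of the 22 CpGs. The levels along these CpGs were uneven, with some CpGs at 0 in both K9M libraries next to others at 57.4% and 64.8%. Depth was uneven too. At the 3 neighbouring CpGs at positions 155628490, 155628494 and 155628527 the K9M libraries had 71 to 76 second counts and the other libraries 22 to 31, whereas at position 155628543, where both K9M libraries stood at 0%, they had 37 and 33. The part of this depth in the K9M gain was not tested.

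The neighbours of that stretch were alike in all libraries. The tile 5.53 kb from the end had a level of 99.8% in WT, 106% and 94.8% in K36M, with K9M at 98.7% and 101%. A CpG-rich tile of 64 CpGs, 19.6 kb from the end, was at or below 0.546% in all 5 libraries. The outermost tile was methylated in all 5 libraries at most ends, with low levels at chromosomes 4, 6 and 17. At chromosome 6 it was 0% in WT and at most 1.61% in the mutants, and at chromosome 17 it was 0% in WT and at most 2.95% in the mutants. Over all 158 tiles in the last 100 kb, 0 were called lower in K36M than in WT, where 0.439% of all autosomal tiles were. At that share, 0 of 158 does not set the tips apart. Called higher in K9M than in WT were 2, the neighbouring tiles at the chromosome 4 end, where 0.0458% of all autosomal tiles were.

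The third K9M gain against WT was the last tile of the chromosome 11 run. Its call was kept in 4 of 6 alternatives of coverage, plateau, tool or CpG number (adjusted p up to 0.0986). In the other direction, 6 tiles were higher in K36M than in K9M. A neighbouring pair on chromosome 19, 64.8 kb from the promoter of Gfra1, the co-receptor for the growth factor GDNF, led them. At chr19:58463001-58464000 the level was 80.4% in WT, 107% and 90.4% in K36M, while K9M stood at 53.7% and 35.2% (adjusted p = 0.0392). From position 58463197 to 58463228 its CpGs had only 11 to 14 second counts in the K36M libraries. That call was kept in 3 of 5 alternatives of coverage, plateau, tool or CpG number (adjusted p up to 0.121). At chr19:58464001-58465000 the level was 17.3% in WT, 28.6% and 31.4% in K36M, against 4.09% and 9.08% in K9M (adjusted p = 0.0213). WT lay between the mutants in both tiles. The same held at chr8:129245001-129246000, with 43.0% in WT, 49.4% and 61.0% in K36M, with K9M at 20.8% and 26.3% (adjusted p = 0.00876). At chr16:96494001-96495000 the level was 26.6% in WT, 37.7% and 29.8% in K36M, while K9M stood at 5.46% and 8.06% (adjusted p = 0.0269). With any 1 library left out, 0 of the 6 were called, for K36M replicates 1 and 2 and for K9M replicates 1 and 2 alike.

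The remaining gain of K36M over K9M that was named lay 8.005 kb from the end of chromosome 13, at chr13:120276001-120277000, and overlapped a promoter of Tmem267, which encodes a transmembrane protein. That promoter is described with its neighbours at the chromosome tip.

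Nearly all placed promoters were unmethylated in every library. Of the 320 symbols, 304 were under 10% in all 5 libraries and 289 were under 5%, and the median level in WT was 0.435%. The promoters with the most CpGs were among them. Foxk2, a forkhead transcription factor, stood at 0.459% in WT, 0.722% and 0.285% in K36M, against 0.323% and 0.216% in K9M over 55 measured CpGs. Ski, a repressor of TGF-beta signalling, Alyref, an mRNA export adaptor, and Acvr1b, an activin receptor, were all below 1% in every library. Among the 10 promoters with the most CpGs, that of 0610009L18Rik was the one where WT stood apart, at 4.70% against 0.290% to 0.458% in the mutants. Level was 20% or more in any library for 13 symbols, and 5 of these were over 80% in all libraries. At 0 symbols did the K36M mean lie 10 points or more from WT, while the K9M mean lay 10 points or more below WT at 3 symbols and above at 3.

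The imprinted genes of distal chromosome 7 were represented by 5 of the 15 on a list of them. These were Igf2, a fetal growth factor, Ascl2, a basic helix-loop-helix factor of the trophoblast, Cd81, a tetraspanin, Phlda2, a restraint on placental growth, and Osbpl5, a lipid transfer protein. All 5 promoters were below 5% in all 5 libraries. Ascl2, all of whose 23 CpGs were measured, stood at 1.96% in WT, 3.27% and 3.65% in K36M, with K9M at 2.94% and 4.40%. Phlda2 stood at 1.34% in WT, 0.561% and 0.787% in K36M, while K9M stood at 1.23% and 0.427%. The other 10 genes of the list, H19 and Kcnq1ot1 among them, were not placed and are not analysed here.

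Promoters close to the tips of chromosomes 13 and 19 were the ones whose mean level in K9M lay 10 points or more below WT, without a call against WT at any of them. The upstream Tmem267 promoter stood at 24.0% in WT, 16.8% and 21.3% in K36M, against 3.34% and 0.194% in K9M. Its tile was called higher in K36M than in K9M by 13.2 points (adjusted p = 0.0398), a call kept in 2 of 6 alternatives of coverage, plateau, tool or CpG number (adjusted p up to 0.274), and was not called lower in K9M than in WT (adjusted p = 0.129). The downstream Tmem267 promoter, with 50 measured CpGs, stood at 85.8% in WT, 78.2% and 78.2% in K36M, with K9M at 71.6% and 62.8%. The promoter of 3110070M22Rik on the other strand, which overlaps it and shares its CpGs, stood at 88.9% in WT, 88.9% and 84.6% in K36M, while K9M stood at 76.2% and 67.1%. Their tile, chr13:120277001-120278000, was not called between K9M and WT (adjusted p = 0.229) or between K36M and K9M (adjusted p = 0.720). Both K9M libraries lay below WT at 91 of the 109 measured CpGs in the last 12 kb of chromosome 13. Read depth there was unlike the rest. The second count per CpG was 268 in WT, 82.7 and 118 in K36M, against 146 and 193 in K9M, where the median over all member CpGs was 35 to 45. Single CpGs reached relative levels of 170% in WT and 246% in K36M replicate 2. The part of this depth in the level differences was not tested.

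Csf2ra, which encodes the alpha subunit of the receptor for the myeloid growth factor GM-CSF, has its promoter 30.5 kb from the end of chromosome 19. It stood at 77.6% in WT, 80.3% and 82.4% in K36M, with K9M at 60.5% and 69.5% over 12 measured CpGs. K36M and WT lay together there, with both K9M libraries below, and no tile at this promoter was called. Medag, a gene of fat cell differentiation, went the other way, with 26.5% in WT, 19.4% and 20.3% in K36M, while K9M stood at 39.6% and 48.6%. That level rests on 3 CpGs with 101 second counts in WT and carries no call either.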

How the data were processed

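RRBS libraries of 1 WT, 2 K36M and 2 K9M samples were analysed. Per the submitters' processing notes, cutadapt and BSMAP were used with the mm9 build, and versions, settings and deduplication are not given in the sources used here. The authors deposited, for each CpG, the methylated fraction and a total count. The product of fraction and total was whole within 0.01 for 100% of CpGs in 4 libraries and for 89.2% in K9M replicate 2, and its rounded value was taken as the methylated count. In 4 libraries the deposited total was read as the methylated count plus a second count that follows reads of either kind, and in K9M replicate 2 as the second count itself, a reading inferred from the values. The ratio of the 2 counts was scaled to a plateau per library, taken as its median in the 20% of tiles that ranked highest on average.

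Counts were summed per 1 kb tile with at least 3 CpGs and fitted over all autosomal tiles by quasi-binomial logistic regression with the log plateau as offset (Python 3.11.15, numpy 2.4.6). Dispersions, which rest on 1 degree of freedom per mutant pair (2 residual in all), were moderated with limma 3.58.1 in R 4.3.3 (prior degrees of freedom 7.86) and held at or above 1, and 22.3% of tiles lay above that floor. The lone WT library is thereby assumed to vary like the mutants. The script was tested on simulated data, whose spread and effect sizes were reset after earlier settings recovered few of the changes put in. The last settings gave every tile the same small spread beyond counting error. It made no false call there, which does not cover tiles that vary more. It missed nearly all of the smallest changes and part of the middle ones, so tiles without a call may still differ. edgeR 4.0.16 was an alternative. CpGs on 1 read are not independent, and intervals cover counting error only. Counts of CpGs in the same direction, within a tile or stretch picked by its values, are thus description only.

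Named tiles were, per comparison, the 10 largest losses and 5 largest gains among called tiles whose groups did not overlap, and runs of called tiles within 5 kb. The windows, lists and rules were chosen with earlier results of these data known. Of 15382 autosomal RefSeq promoters with at least 8 CpGs, 3687 had all CpGs listed on their own chromosome at a matching spacing and 34 on the next chromosome. Matches to at least 50% of the CpGs, a rule added after seeing the data, placed 236 of the 386 promoters at the windows, and 0 when searched on the next chromosome's end. No mm9 genome was used, so tiles carry no sequence or gene body annotation here. Replicates of a group held different values. Their second counts at CpGs without methylated counts differed somewhat more than counting alone gives (chi-square per CpG 1.22 in K36M and 1.18 in K9M), while their tile levels differed about as much as counting error, with a mean deviance per tile of 1.13 and 0.935. They were kept as 2 samples each, and whether they are separate libraries of 1 sample cannot be told from these values.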

Additional observations from a re-analysis of the deposited data

How the results depend on the processing

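Scaling and summary moved the pooled differences most. K36M minus WT (-1.63 points) became -1.24 with a plateau of the top 40% of tiles, -0.941 with levels as deposited, -1.07 as a mean of CpG levels and -2.18 in the last 1 Mb. K9M minus WT (-0.619) became -0.904, 2.38, 0.432 and -1.25 under the same settings, reversing with levels as deposited and as a mean of CpG levels. K36M minus K9M (-1.01) became -0.339, -3.32 and -1.50 under the first 3 of them. Relative to the other autosomal CpGs, K9M minus WT (-0.249) became -1.70 with levels as deposited and -0.879 in the last 1 Mb, K36M minus K9M (-0.280) reversed to 1.30 with levels as deposited, and K36M minus WT (-0.529) became -0.122 as a mean of CpG levels and -1.07 in the last 1 Mb. Without the last 12 kb of chromosome 13, a setting chosen after seeing the data, K36M minus WT was -1.32 and K9M minus WT -0.360, and relative to the other autosomal CpGs K36M minus WT was -0.217. In tiles of 20% to 80%, levels as deposited gave -1.05 for K36M minus WT (-5.66), 18.8 for K9M minus WT (2.34) and -19.6 for K36M minus K9M (-7.98), and the last 1 Mb gave -3.80 for the first. In tiles over 80%, K36M minus WT reversed to 0.525 with levels as deposited. Deposited levels set K9M replicate 2 apart by its unit.

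Calls lower in K36M than in WT (24) numbered 4 in the last 1 Mb, 38 in the last 5 Mb, 12 with limma, 60 with edgeR, 7 with 500 bp tiles, 45 with the dispersion prior taken from tiles with at least 5 methylated counts in every library (chosen after seeing the data) and 0 to 5 without 1 replicate. Calls lower in K36M than in K9M (68) numbered 10 in the last 1 Mb, 108 in the last 5 Mb, 45 with limma, 108 with edgeR and 4 to 23 without 1 replicate. Calls higher in K36M than in K9M (6) numbered 3 at coverage minimums of 5 and 20 and with at least 5 CpGs per tile, 1 in the last 1 Mb, 12 in the last 5 Mb, 2 with limma and with 500 bp tiles, and 0 without any 1 replicate. Calls higher in K9M than in WT (3) numbered 1 at coverage minimum 5 and with 500 bp tiles, 5 at coverage minimum 20 and in the last 5 Mb, 13 with deposited levels, 10 with edgeR, 7 with at least 5 CpGs per tile, 9 with that other prior and 0 to 1 without 1 replicate. Calls higher in K36M than in WT (0) numbered 4 with deposited levels and 3 with edgeR and with that prior. Calls lower in K9M than in WT (0) numbered 7 with deposited levels, 2 in the last 5 Mb, 1 with limma and with at least 5 CpGs per tile, 5 with edgeR and 4 with that prior. Of the 28 calls of named tiles, 28 passed with edgeR, 11 with limma, 0 without K36M replicate 1, 0 without K36M replicate 2, 7 without K9M replicate 1 and 5 without K9M replicate 2, and 0 with a replicate block. Apart from these, the cause of a change was not tested. The last 1 Mb held the 654 and 561 tiles of its 0.5 Mb bins, of the 4551 member tiles, and the last 5 Mb held more tiles. Counts for these windows are thus over other numbers of tiles. Shares over all autosomal tiles are not given for the alternatives, so these counts do not show whether the windows differ from the rest.

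Nothing states whether the replicate numbers pair K36M with K9M libraries. The differences between replicates of the 2 groups correlated at 0.088 over member tiles. Much of these differences is counting error, so that value cannot tell whether libraries of the same number were handled together. With a replicate block the counts of calls were all 0. Fits with a block or without 1 replicate have 1 residual degree of freedom. Second counts of 35 to 45 per CpG limit single CpGs, and fewer than 2 WT libraries limit every comparison with WT.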
